A study of Mus musculus with 9 samples.

Results

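The expression of 10 cytokine receptor genes of CD4+ T cells was followed across 3 culture conditions. The members were taken by name: *Il2ra*, *Il2rb*, *Il2rg*, *Il4ra*, *Il21r*, *Il12rb1*, *Il12rb2*, *Il18r1*, *Il6ra* and *Il10ra*, 10 of the 55487 genes in the deposited table. All 10 were among the 15536 genes that reached 1 TPM (the length-corrected share of a library's transcripts) or more in 3 or more libraries and were therefore tested. CD4+ T cells were isolated by negative selection from spleens of C57BL/6 wild-type (*Trail-r*+/+) mice, and RNA-seq was performed on 9 libraries, 3 per condition. The medium group received culture medium only. The stimulated group received 3 µg/ml anti-CD3 and 2 µg/ml anti-CD28 antibodies (Abs) without TRAIL for 24 h, and the TRAIL-treated group received the same Abs together with 10 µg/ml recombinant mouse TRAIL over the same 24 h. The culture time of the medium group and the source of each replicate, whether separate mice or separate cultures, are not given in the sources used here, so p-values describe the spread between these libraries, which may be technical.

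T cells learn which cytokines surround them through paired receptor chains. IL-2, IL-4 and IL-21 are read by complexes that share the common gamma chain, *Il2rg*, which brings in the kinase JAK3. A private chain gives each complex its ligand: *Il4ra* for IL-4, *Il21r* for IL-21, and *Il2rb* for IL-2 and IL-15, with *Il2ra* (CD25) added to form the high-affinity IL-2 receptor. The IL-12 receptor is built from *Il12rb1* and *Il12rb2*, and its signal through STAT4 supports the Th1 program. The remaining 3 members belong to neither group. *Il18r1* is a receptor chain of the IL-1 receptor family that binds IL-18, *Il6ra* binds IL-6 and signals through gp130 (*Il6st*), and *Il10ra* is the ligand-binding chain for IL-10 and belongs to the class II cytokine receptors. Resting CD4+ T cells typically carry *Il6ra* and *Il7r*, while CD25 is a classic marker of T cell activation.

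The promoters of 4 members are shown because their transcripts parted ways in TRAIL-treated cells: those of *Il2ra* and *Il12rb2* stood near or below the medium level, and those of the neighbours *Il4ra* and *Il21r* stood closer to the stimulated level. Each is taken from the 250 bases before the RefSeq transcript start (assembly GRCm38.p6, 5′ to 3′ on the strand of the gene) and lies at chr2:11642542-11642791 on the plus strand for *Il2ra*, chr6:67376189-67376438 on the minus strand for *Il12rb2*, chr7:125552021-125552119 on the plus strand for *Il4ra* and chr7:125603179-125603428 on the plus strand for *Il21r*.
Il2ra: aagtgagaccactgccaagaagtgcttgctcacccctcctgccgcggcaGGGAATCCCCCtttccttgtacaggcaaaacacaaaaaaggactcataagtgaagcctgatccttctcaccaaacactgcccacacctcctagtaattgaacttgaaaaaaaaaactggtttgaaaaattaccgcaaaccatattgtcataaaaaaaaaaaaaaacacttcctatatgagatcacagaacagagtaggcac
Il12rb2: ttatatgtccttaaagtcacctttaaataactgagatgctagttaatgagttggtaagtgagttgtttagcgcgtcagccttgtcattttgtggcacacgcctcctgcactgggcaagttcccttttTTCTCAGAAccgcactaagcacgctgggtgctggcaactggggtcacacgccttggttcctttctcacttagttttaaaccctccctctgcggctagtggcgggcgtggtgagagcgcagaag
Il4ra: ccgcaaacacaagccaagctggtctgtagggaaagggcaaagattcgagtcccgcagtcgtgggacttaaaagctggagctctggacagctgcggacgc
Il21r: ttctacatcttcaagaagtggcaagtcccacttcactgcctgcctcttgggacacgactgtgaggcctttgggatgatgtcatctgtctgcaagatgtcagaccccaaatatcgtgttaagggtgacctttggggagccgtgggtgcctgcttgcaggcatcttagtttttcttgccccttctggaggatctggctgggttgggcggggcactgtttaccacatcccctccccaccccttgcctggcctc
Capitals mark motif matches. In *Il2ra* they are a pair of overlapping matches to the NF-kB motif that begin 201 and 200 bases before the start. In *Il12rb2* they are a match to the STAT motif TTCNNNGAA that begins 123 bases before the start. An NF-kB match was held by 7.25% and a STAT match by 7.02% of 32851 RefSeq promoter windows of the same length. On both strands of the 7 members found in the RefSeq table (*Il2ra*, *Il2rg*, *Il4ra*, *Il21r*, *Il12rb2*, *Il18r1* and *Il6ra*), no other match to these motifs was found, nor to the AP-1 motif TGANTCA (6.75% of windows), the NFAT motif GGAAAA (20.4%) or the T-box motif GGTGTGA (3.33%). A match describes letters and not binding. The *Il2ra* window ends 15 bases before the gene start used for the deposited table, and the *Il12rb2* and *Il21r* windows adjoin it. For *Il4ra* the RefSeq start lies 151 bases inside the gene of the table, and the 99 bases before that gene are printed.

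The 10 genes are protein-coding and lie on 9 chromosomes in the GRCm38 coordinates of the table. *Il4ra* (chr7:125552120-125579474) and *Il21r* (chr7:125603429-125633570) are neighbours on the plus strand of chromosome 7, separated by 23954 bp that hold 0 annotated genes in GENCODE M21. *Il2ra* spans chr2:11642807-11693193 and *Il12rb2* spans chr6:67291318-67376188. The 3′ exons of *Il12rb2* share 1519 bp with exons of *Serbp1*, an mRNA-binding protein gene on the opposite strand. *Serbp1* averaged 444 ± 56.6, 1264 ± 327 and 586 ± 65.6 TPM (SD, n = 3) in the medium, stimulated and TRAIL-treated groups. Whether reads were counted by strand is not given in the sources used here, and without it reads of the shared exons cannot be told apart. *Il6ra* shares 242 exonic bp with the antisense gene *Gm42809*, which did not exceed 4.05 TPM in any library.

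TPM values divide reads by transcript length and by the library total, so they can be compared between genes but carry no sequencing depth, and no counting interval can be given. Between 13691 and 14909 genes reached 1 TPM in a library. The T cell markers *Cd3d*, *Cd3e*, *Cd3g*, *Cd4*, *Thy1*, *Trac* and *Cd5* were present in every group (7 of 7 at 1 TPM or more), with summed levels of 3111 to 3429 TPM in medium, of 2678 to 2772 TPM after stimulation and of 2992 to 3326 TPM with TRAIL. Transcripts of other blood cells were also present and differed between the groups. Of the erythroid markers, 5 (globin and heme synthesis genes) summed to 2061 to 2502 TPM in medium, to between 24.8 and 39.6 TPM after stimulation and to between 607 and 656 TPM with TRAIL. All 5 were called lower on stimulation, higher with TRAIL than without, and lower with TRAIL than in medium, and their part in the receptor values was not tested. The 5 dendritic cell markers summed to 26.4 to 27.2 TPM in medium, to between 7.51 and 10.1 TPM after stimulation and to between 16.9 and 18.6 TPM with TRAIL, although *Zbtb46* among them ran the other way, at means of 2.44, 5.86 and 1.204 TPM. In bulk libraries such as these, fewer cells of a type and less RNA per cell cannot be told apart.

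Stimulation moved 8 of the 10 receptor genes past the call rule, 5 upward and 3 downward, and 6 of the 10 were called between TRAIL-treated and stimulated cells. A gene was called when limma on log2(TPM + 1) gave a Benjamini-Hochberg adjusted p below 0.05 over all genes tested and a change of at least 2-fold. Against medium, stimulated cells had higher *Il2ra*, *Il2rb*, *Il4ra*, *Il12rb1* and *Il12rb2*, where 12.4% of all genes tested were called higher. They had lower *Il18r1*, *Il6ra* and *Il10ra*, where 19.5% of all genes were called lower. Against stimulated cells, TRAIL-treated cells had lower *Il2ra*, *Il2rb*, *Il12rb1* and *Il12rb2* (4 members, with 14.3% of all genes called lower) and higher *Il18r1* and *Il6ra* (2 members, with 16.6% of all genes called higher). Against medium, 0 members were called in TRAIL-treated cells, where 2.49% of all genes were called higher and 2.13% lower. In that comparison 7 members had an unadjusted p under 0.05 and 6 an adjusted p under 0.05 at any fold, a threshold that 32.6% of all genes passed. The 3 comparisons share libraries, since each group enters a pair of them, so their values are set side by side and not counted as separate evidence.

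**Figure D1:**
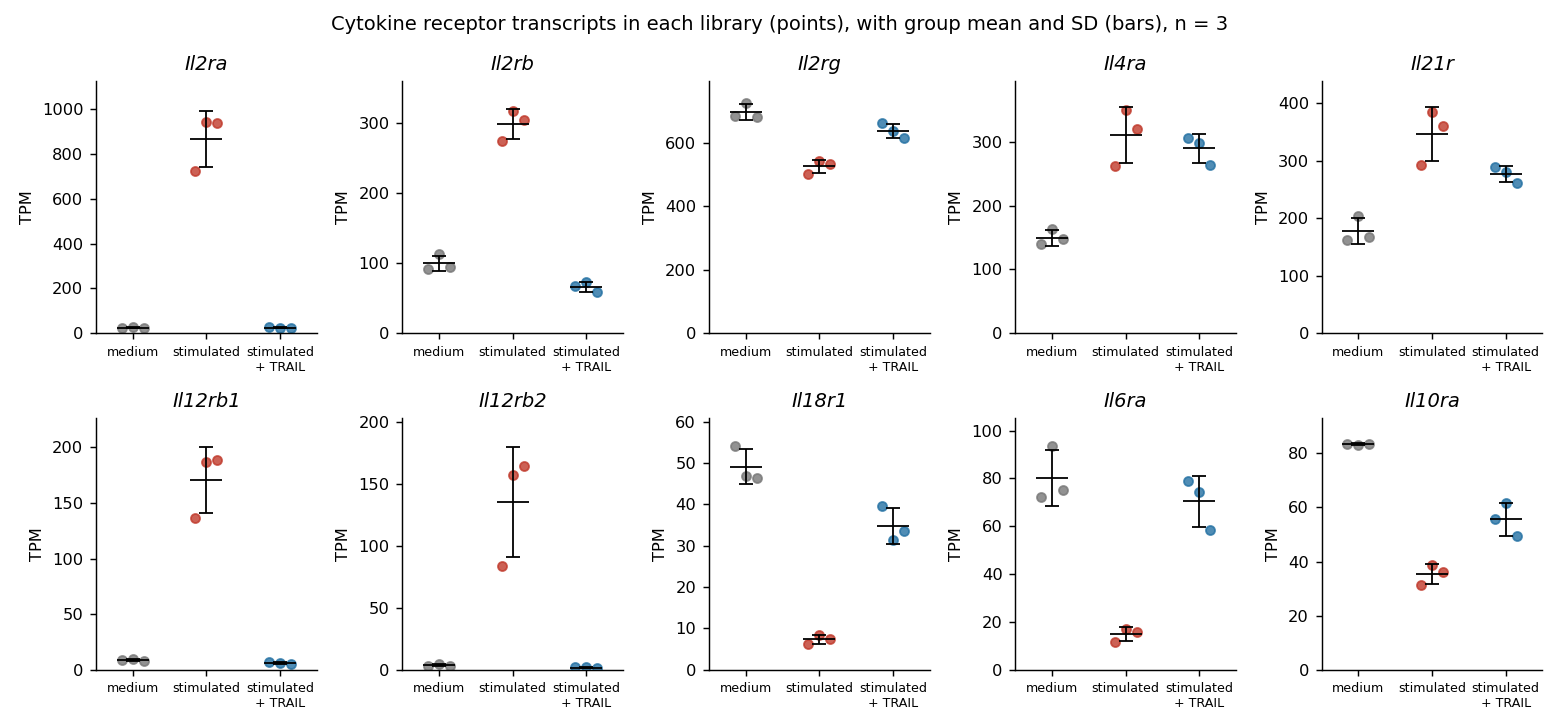
TPM of each receptor gene (vertical axes, linear from 0, with a separate range per gene) in the 3 libraries of each group (points), with the group mean and SD (black bars). The *Il2ra* libraries stood at 723 to 944 TPM in stimulated cells and at 20.8 to 26.3 TPM in the other groups, whereas *Il4ra* and *Il21r* of TRAIL-treated cells stood above every medium library.

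The median log2 fold change of the members was 1.00 in stimulated against medium, beside -0.15 over all genes. It was -0.20 in TRAIL-treated against stimulated cells, beside 0.01 over all genes, and -0.31 in TRAIL-treated against medium cells, beside -0.18. The members did not overlap between groups for 10, 9 and 8 of the 10 genes in these comparisons, in the same order, where 72.6%, 70.4% and 50.6% of all genes did not overlap. By the adjusted p alone, without the fold threshold, 10, 9 and 6 members passed, where 68.7%, 67.1% and 32.6% of all genes did. At a change of at least 4-fold (2 on the log2 scale), 5 members were called on stimulation, beside 9.62% of all genes. Scaling each library to its T cell markers moved the median over all genes to 0.08, -0.17 and -0.13, so a member near the 2-fold threshold must be read against that shift.

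The alpha chain of the IL-2 receptor showed the widest range in level. *Il2ra* stood at 22.9, 26.3 and 22.9 TPM in the medium libraries, at 723, 944 and 938 TPM in the stimulated libraries, and at 25.3, 23.4 and 20.8 TPM in the TRAIL-treated libraries. Every stimulated library was far above the other 6, and the medium and TRAIL-treated libraries overlapped. The mean rose 36.1-fold with stimulation, from 24.0 ± 1.96 to 868 ± 126 TPM (SD, n = 3), with a log2 fold change of 5.11 ± 0.13 (SE, limma adjusted p = 6.18e-10). It was 37.5-fold lower with TRAIL than with the Abs alone, at 23.2 ± 2.25 TPM (log2 fold change -5.16 ± 0.13, limma adjusted p = 7.75e-10). Against medium, the TRAIL-treated value was -0.05 ± 0.13 (limma adjusted p = 0.777), and its sign turned under other scalings of the libraries (0.13 with median-of-ratios scaling). An unspliced annotation inside an *Il2ra* intron, *Gm37881*, followed at 3.12 ± 0.337, 50.2 ± 16.7 and 3.32 ± 0.598 TPM in the medium, stimulated and TRAIL-treated groups.

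*Il2rb*, the signalling chain shared by IL-2 and IL-15, stood at 92.0, 113 and 94.0 TPM in medium, at 275, 317 and 305 TPM after stimulation, and at 66.6, 73.3 and 58.4 TPM with TRAIL. The 3 groups did not overlap, and the TRAIL-treated libraries were the lowest. *Il2rb* rose 3.00-fold on stimulation (log2 fold change 1.58 ± 0.12, limma adjusted p = 9.28e-07) and was 4.52-fold lower with TRAIL than without (-2.16 ± 0.12, limma adjusted p = 1.05e-07). TRAIL-treated cells thus carried less *Il2rb* than medium cells by a log2 fold change of -0.58 ± 0.12 (limma adjusted p = 0.00477), short of the 2-fold threshold. Unlike *Il2ra*, which overlapped the medium range, *Il2rb* lay below it in 3 of 3 TRAIL-treated libraries.

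*Il2rg*, the common gamma chain, was the steadiest member. It stood at 685, 725 and 682 TPM in medium, at 503, 543 and 533 TPM after stimulation and at 661, 637 and 616 TPM with TRAIL. The stimulated libraries were the lowest and did not overlap the others, by a log2 fold change of -0.41 ± 0.08 against medium (limma adjusted p = 0.0013), while TRAIL-treated cells were 0.28 ± 0.08 above stimulated cells (limma adjusted p = 0.0116). Both changes were below 2-fold, so the gene was not called in any comparison. When libraries were scaled to their T cell markers they were -0.14 (limma adjusted p = 0.143) and 0.07 (limma adjusted p = 0.481), and with quantile normalization the first was -0.68 and the TRAIL-treated against medium value was -0.33 (limma adjusted p = 0.0305).

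Markers of regulatory T cells, which carry CD25 constitutively, did not move as a block with *Il2ra*. The 4 markers *Foxp3*, *Ikzf2*, *Ctla4* and *Tnfrsf18* summed to 165 to 188 TPM in medium, to between 802 and 842 TPM after stimulation and to between 264 and 304 TPM with TRAIL, and none was listed at 0. *Foxp3*, the lineage factor, averaged 29.1, 25.5 and 25.1 TPM in the same order and was not called in any comparison. *Ikzf2* ran opposite to *Il2ra*, at 24.2, 6.90 and 23.8 TPM. *Ctla4* averaged 65.4, 244 and 171 TPM and *Tnfrsf18* 57.0, 542 and 67.5 TPM, and activated T cells carry both. Of the 4, 2 were called higher and 1 lower after stimulation, and 1 was higher and 1 lower with TRAIL than without. Their part in the *Il2ra* levels was not tested.

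The private chains for IL-4 and IL-21 behaved differently from the IL-2 receptor chains: they were higher than in medium both after stimulation alone and in the presence of TRAIL. *Il4ra* stood at 139, 163 and 147 TPM in medium, at 263, 350 and 320 TPM after stimulation and at 307, 299 and 263 TPM with TRAIL. The stimulated and TRAIL-treated libraries overlapped, and both lay above every medium library. *Il4ra* rose 2.08-fold on stimulation (log2 fold change 1.04 ± 0.12, limma adjusted p = 2.99e-05). This call stood close to the threshold and was lost without medium replicate 1 (0.99), without stimulated replicate 2 (0.95) and with quantile normalization (0.91). TRAIL-treated cells differed from stimulated cells by -0.09 ± 0.12 (limma adjusted p = 0.515), a value that turned to 0.04 under quantile normalization and was -0.31 when libraries were scaled to their T cell markers (limma adjusted p = 0.0234). Against medium, TRAIL-treated cells were higher by 0.95 ± 0.12 (limma adjusted p = 0.000451), short of 2-fold in the full set. This value passed 2-fold without medium replicate 2 or without TRAIL-treated replicate 3 (1.01 in each case). It also passed with median-of-ratios scaling (1.14) and with T cell scaling (1.00).

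*Il21r* stood at 163, 204 and 168 TPM in medium, at 293, 386 and 361 TPM after stimulation and at 289, 281 and 262 TPM with TRAIL. No library of a group overlapped those of another group, and the order was medium, TRAIL-treated, stimulated. The stimulated mean was 1.95-fold the medium mean (log2 fold change 0.95 ± 0.13, limma adjusted p = 6.82e-05), just short of the threshold. The change passed without medium replicate 2 (1.05), without stimulated replicate 1 (1.07), with median-of-ratios scaling (1.05) and with T cell scaling (1.22). The TRAIL-treated against stimulated value was -0.31 ± 0.13 (limma adjusted p = 0.0478). It ran from -0.19 with quantile normalization (limma adjusted p = 0.164) to -0.52 with T cell scaling, and its p also exceeded 0.05 without the filter (0.189), with median-of-ratios scaling (0.0647), without the variance trend (0.0624) and on leaving out any library but medium replicate 2 and stimulated replicate 1. The TRAIL-treated libraries were higher than medium by 0.64 ± 0.13 (limma adjusted p = 0.00425). *Il4ra* and *Il21r*, whose promoters are printed above and which are neighbours on chromosome 7, thus had a similar course over the 3 conditions. Their log2(TPM + 1) values had a Pearson r of 0.967 over the 9 libraries, which mainly reflects the 3 group means. Some members on different chromosomes had a higher r, such as *Il12rb1* and *Il12rb2* (0.998) and *Il18r1* and *Il6ra* (0.982). Any part of the neighbouring position in this course was not tested.

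The chains of the IL-12 receptor were low in medium, strongly raised by stimulation and back at or under the medium level with TRAIL. *Il12rb1*, which is also part of the IL-23 receptor, stood at 8.94, 9.42 and 7.58 TPM in medium, at 136, 187 and 188 TPM after stimulation and at 7.15, 6.20 and 5.14 TPM with TRAIL. The stimulated libraries lay far above the rest, and every TRAIL-treated library lay below every medium library. The gene rose 19.7-fold on stimulation (log2 fold change 4.14 ± 0.16, limma adjusted p = 7.74e-09) and was 27.7-fold lower with TRAIL (-4.58 ± 0.16, limma adjusted p = 5.32e-09). The TRAIL-treated and medium groups differed by -0.43 ± 0.16, which did not pass the test (limma adjusted p = 0.059), although it did at 0.0204 without stimulated replicate 1 and at 0.0436 without TRAIL-treated replicate 1.

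*Il12rb2*, the inducible signalling chain that marks Th1 cells, stood at 3.35, 4.34 and 3.08 TPM in medium, at 84.2, 157 and 164 TPM after stimulation and at 1.83, 2.03 and 1.28 TPM with TRAIL. The groups did not overlap. Stimulated replicate 1 was markedly below the other stimulated libraries, but it remained above all 6 libraries of the other groups. The mean rose 37.7-fold on stimulation (log2 fold change 4.84 ± 0.24, limma adjusted p = 5.24e-08) and was 79.0-fold lower with TRAIL (log2 fold change -5.60 ± 0.24, limma adjusted p = 2.19e-08). Against medium the TRAIL-treated value was -0.76 ± 0.24 (limma adjusted p = 0.0366), and it depended on the handling of low values: it was -1.03 and passed the call rule with a pseudocount of 0.1 TPM, -0.35 with a pseudocount of 5 TPM (limma adjusted p = 0.216), and had an adjusted p of 0.232 without the filter. That p also exceeded 0.05 on leaving out any medium or TRAIL-treated library. *Serbp1*, which overlaps its 3′ exons, moved in the same directions by log2 fold changes of 1.49 and -1.08 on stimulation and with TRAIL, and its part in the *Il12rb2* values was not tested.

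Stimulated replicate 1 was the lowest of the stimulated libraries for all 10 members and for 58.5% of all genes tested. TRAIL-treated replicate 3 was the lowest of its group for 9 members and for 61.7% of all genes, and medium replicate 2 was the highest of its group for 8 members and for 49.1% of all genes. Leaving out stimulated replicate 1 changed no call against medium except that of *Il21r* given above.

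Natural killer and CD8 T cells also carry *Il2rb*, *Il2rg*, *Il12rb1*, *Il12rb2* and *Il18r1*. The 6 NK cell markers summed to 260 to 342 TPM in medium, to between 233 and 304 TPM after stimulation and to between 96.1 and 101 TPM with TRAIL, and none was listed at 0. *Gzma*, which activated T cells also express, carried the stimulated sum and stood at 149, 230 and 51.3 TPM, whereas *Ncr1*, which marks NK cells more closely, stood at 40.1, 2.64 and 8.44 TPM. Of these 6 markers, 0 were called higher and 4 lower after stimulation. With TRAIL, 2 were higher and 1 lower than in stimulated cells, and 5 were lower than in medium. *Cd8a* and *Cd8b1* together reached 110 to 118 TPM in medium, 94.2 to 105 TPM after stimulation and 46.9 to 49.4 TPM with TRAIL. Neither was called on stimulation. With TRAIL, *Cd8a* was called lower than in stimulated cells (-1.62), and both were called lower than in medium (-1.41 and -1.10). Their part in the values of these receptors was not tested.

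The receptors for IL-18, IL-6 and IL-10 ran the other way, high in medium, low after stimulation and higher again with TRAIL. *Il18r1* stood at 54.0, 46.9 and 46.4 TPM in medium, at 6.19, 8.47 and 7.45 TPM after stimulation and at 39.6, 31.3 and 33.4 TPM with TRAIL. The groups did not overlap. It fell 6.67-fold on stimulation (log2 fold change -2.59 ± 0.13, limma adjusted p = 6.69e-08) and was 4.72-fold higher with TRAIL than without (2.098 ± 0.13, limma adjusted p = 3.44e-07). The TRAIL-treated against medium value was -0.49 ± 0.13 (limma adjusted p = 0.0198), but it was -0.30 with median-of-ratios scaling (limma adjusted p = 0.0696). Its p also exceeded 0.05 without the filter (0.0928) and without medium replicate 1, TRAIL-treated replicate 2 or TRAIL-treated replicate 3. Its partner *Il18rap*, named after its values were seen, averaged 24.8 ± 2.31, 6.01 ± 1.37 and 13.4 ± 1.202 TPM and was called lower on stimulation (-1.89) and higher with TRAIL (1.05).

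*Il6ra* stood at 72.2, 93.5 and 75.0 TPM in medium, at 11.8, 17.1 and 15.8 TPM after stimulation and at 78.8, 74.2 and 58.5 TPM with TRAIL. The medium and TRAIL-treated libraries overlapped, and every stimulated library lay below both. It fell 5.39-fold on stimulation (log2 fold change -2.36 ± 0.17, limma adjusted p = 6.37e-07) and was 4.73-fold higher with TRAIL than without (2.17 ± 0.17, limma adjusted p = 1.25e-06). The difference of -0.19 ± 0.17 between TRAIL-treated and medium cells did not pass (limma adjusted p = 0.417) and was 0.0010 with median-of-ratios scaling. *Il6st*, the gp130 chain through which *Il6ra* signals, was also chosen after its values were seen. It averaged 77.5 ± 6.70, 27.1 ± 8.56 and 98.4 ± 10.2 TPM, and it was called lower on stimulation (-1.53) and higher with TRAIL (1.87).

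*Il10ra* stood at 83.6, 83.1 and 83.5 TPM in medium, at 31.3, 38.8 and 36.0 TPM after stimulation and at 55.7, 61.7 and 49.3 TPM with TRAIL. The groups did not overlap, and the TRAIL-treated libraries lay in the middle. It fell 2.36-fold on stimulation (log2 fold change -1.22 ± 0.11, limma adjusted p = 4.46e-06), a call lost when libraries were scaled to their T cell markers (-0.96). The TRAIL-treated cells were 1.57-fold above stimulated cells (0.64 ± 0.11, limma adjusted p = 0.000511) and lower than medium cells by -0.58 ± 0.11 (limma adjusted p = 0.0038), both short of 2-fold. *Il10rb*, its partner, again named after its values were seen, averaged 67.2 ± 5.66, 39.2 ± 0.993 and 41.5 ± 5.22 TPM, with a TRAIL-treated against stimulated difference of 0.07 ± 0.11 (limma adjusted p = 0.577).

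B cells and myeloid cells also carry *Il2rg*, *Il4ra*, *Il21r*, *Il6ra* and *Il10ra*, and their markers moved in the direction of the receptors that fell on stimulation. The 10 B cell markers summed to 6566 to 7222 TPM in medium, to between 733 and 802 TPM after stimulation and to between 3227 and 3728 TPM with TRAIL. The most abundant was *Ighm*, at 4039, 544 and 2341 TPM. All 10 were called lower on stimulation and all 10 higher with TRAIL than without, and 7 remained lower than in medium. The 14 myeloid markers summed to 2217 to 2468, 108 to 135 and 1611 to 1856 TPM, with *Lyz2* at 545, 7.48 and 346 TPM. All 14 were called lower on stimulation, all 14 were higher with TRAIL than without, and 0 were called in TRAIL-treated against medium cells. No B cell or myeloid marker was listed at 0 in any group. The part of these cells in the receptor values was not tested.

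**Figure D2:**
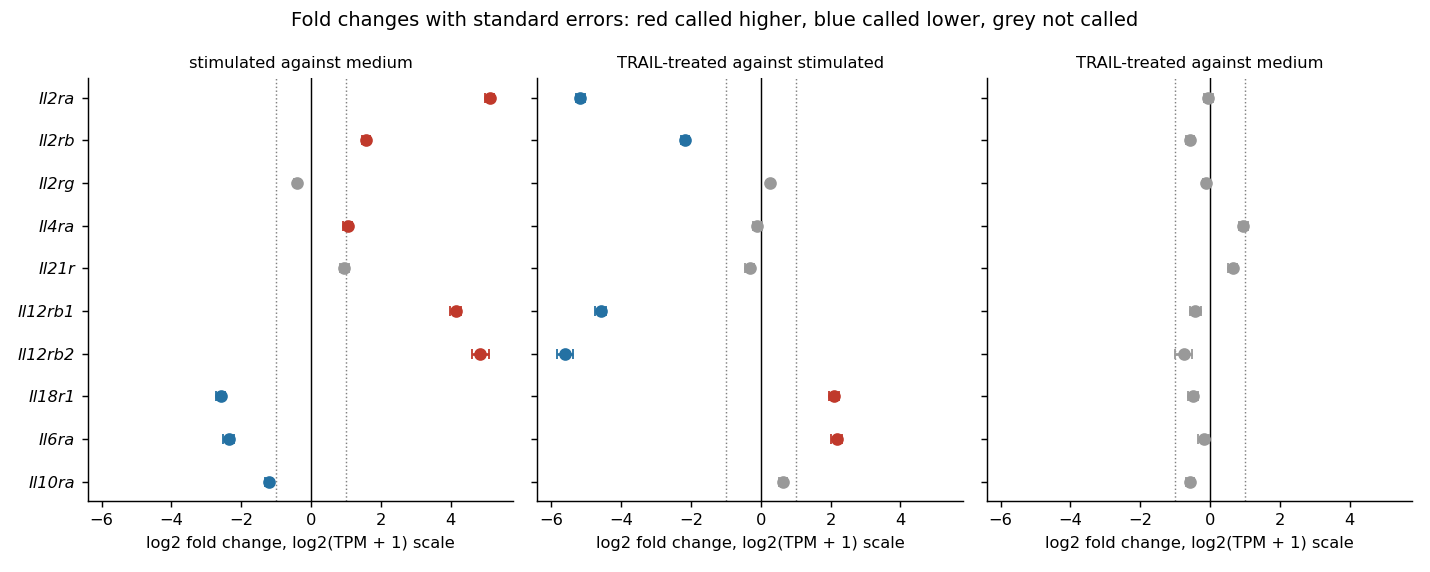
Log2 fold change on the log2(TPM + 1) scale (horizontal axes) with its standard error for each receptor gene in the 3 comparisons. Red points were called higher, blue points lower and grey points not called, and dotted lines mark the 2-fold threshold. *Il2ra*, *Il12rb1* and *Il12rb2* lay beyond 4 on this scale in opposite directions in the first and second panels, and all 10 genes lay within the dotted lines in the third.

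To place the TRAIL-treated libraries between the other groups, the log2(TPM + 1) value of each was scaled so that the medium mean was 0 and the stimulated mean was 1. *Il4ra* stood at 0.909 ± 0.112 (SD, n = 3) and *Il21r* at 0.672 ± 0.077. *Il2ra* stood at -0.010 ± 0.027, *Il12rb1* at -0.105 ± 0.050, *Il12rb2* at -0.157 ± 0.044 and *Il2rb* at -0.368 ± 0.102. The receptors that rose with stimulation thus split into chains at or below the medium level and *Il4ra* near the stimulated level. Over the 1926 genes called higher on stimulation, the median position was 0 and the quartiles were -0.149 and 0.189. Of those genes, 2.60% stood at or above the position of *Il4ra* and 5.87% at or below that of *Il2rb*. Some of those genes, *Il9* for example, reached 1 TPM in 3 libraries only through the stimulated group. A gene listed at the floor of 0.0001 TPM in both other groups stands at 0 by construction. The median and these shares therefore depend on how many such genes the set holds. Among the receptors that fell, *Il6ra* stood at 0.079 ± 0.095, *Il18r1* at 0.189 ± 0.066 and *Il10ra* at 0.478 ± 0.130, beside a median of 0.185 over the 3033 genes called lower, of which 13.4% stood at or above the position of *Il10ra*. *Il2rg*, with its small change, stood at 0.314 ± 0.126. The scale uses the medium and stimulated means of the comparisons above and adds no independent evidence.

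**Figure D3:**
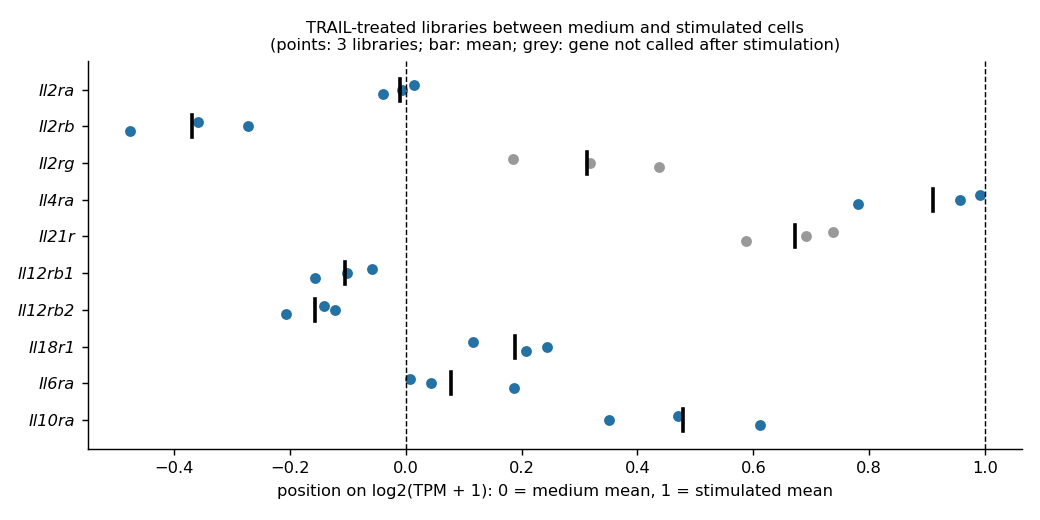
Position of the 3 TRAIL-treated libraries (points) and their mean (bar) for each receptor gene, on a scale where 0 is the medium mean and 1 the stimulated mean of log2(TPM + 1). Grey marks the genes not called after stimulation, *Il2rg* and *Il21r*. *Il4ra* and *Il21r* lay between 0.587 and 0.991, and *Il2rb* lay left of 0 in every library.

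Ratios of chains within a library do not depend on how libraries are scaled to each other. The 6 ratios were compared between groups with exact two-sided permutation tests of log2 ratios, for which 3 against 3 libraries allow no p below 0.1. In 17 of the 18 tests the groups did not overlap and p was 0.1 (exact permutation test, adjusted p = 0.106 over the 18 tests), so no test could pass the threshold. The ratio of *Il2ra* to *Il2rg* averaged 0.0344 ± 0.00159 in medium, 1.65 ± 0.181 after stimulation and 0.0362 ± 0.00227 with TRAIL (SD, n = 3). Alpha chain transcripts therefore outnumbered gamma chain transcripts per length in stimulated cells and were scarce beside them in both other groups, which overlapped (exact permutation p = 0.2).

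Within the IL-2 receptor, the ratio of *Il2ra* to *Il2rb* was 0.242 ± 0.00774, 2.89 ± 0.235 and 0.352 ± 0.0309 in medium, stimulated and TRAIL-treated cells. The TRAIL-treated libraries were above medium by 0.53 on the log2 scale, as *Il2rb* stood below medium while *Il2ra* overlapped it. *Il2rb* to *Il2rg* went from 0.142 ± 0.0112 to 0.568 ± 0.0193 and was 0.103 ± 0.0104 with TRAIL. *Il4ra* to *Il2rg* was 0.215 ± 0.0112, 0.589 ± 0.0623 and 0.453 ± 0.0226, and *Il21r* to *Il2rg* was 0.255 ± 0.0231, 0.657 ± 0.0661 and 0.434 ± 0.00816. For both of these private chains the TRAIL-treated ratios lay between the other groups without overlap. *Il12rb2* to *Il12rb1* was 0.414 ± 0.0435, 0.777 ± 0.140 and 0.277 ± 0.0432, so the inducible chain was the scarcer of the pair in every group, and the log2 difference of -1.02 between TRAIL-treated and stimulated cells ranged from -1.42 to -0.37 with pseudocounts of 0.1 and 5 TPM.

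**Figure D4:**
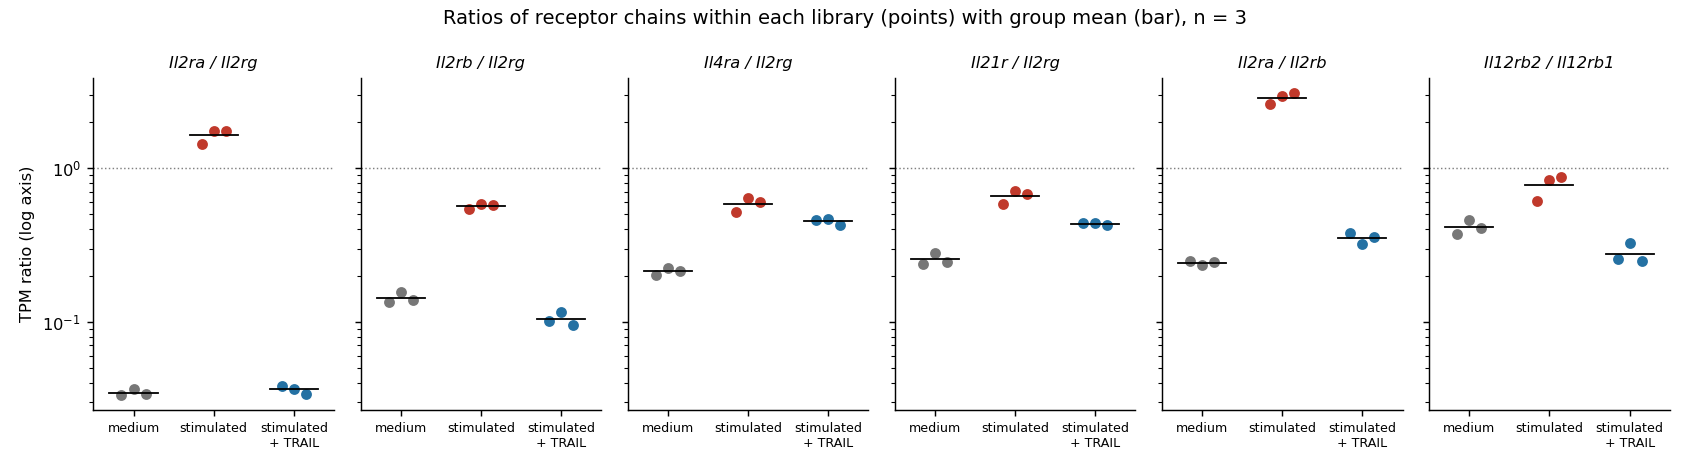
Ratio of TPM values of receptor chains within each library (vertical log axis) in medium, stimulated and TRAIL-treated cells, with points for libraries and bars for group means. The dotted line marks equal levels. *Il2ra* exceeded *Il2rg* and *Il2rb* in the stimulated libraries, and TRAIL-treated *Il4ra* and *Il21r* stood between the medium and stimulated ratios.

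Ranked by mean TPM within a group, the members changed places around *Il2rg*. In medium, *Il2rg* led, followed by *Il21r*, *Il4ra*, *Il2rb*, *Il10ra*, *Il6ra*, *Il18r1*, *Il2ra*, *Il12rb1* and *Il12rb2*, with overlapping libraries between *Il21r* and *Il4ra* and between *Il10ra* and *Il6ra*. In stimulated cells *Il2ra* came first, ahead of *Il2rg*, *Il21r*, *Il4ra*, *Il2rb*, *Il12rb1*, *Il12rb2*, *Il10ra*, *Il6ra* and *Il18r1*, and the neighbours *Il21r* and *Il4ra*, *Il4ra* and *Il2rb*, and *Il12rb1* and *Il12rb2* overlapped. With TRAIL, *Il2rg* led again and *Il4ra* and *Il21r* followed, overlapping each other, ahead of *Il6ra*, *Il2rb* and *Il10ra*, of which each neighbouring pair overlapped. *Il18r1*, *Il2ra*, *Il12rb1* and *Il12rb2* closed the order without overlap. The 10 genes together made up 1374 ± 82.0, 2714 ± 338 and 1463 ± 85.0 TPM in the medium, stimulated and TRAIL-treated groups. *Il2ra* supplied 1.75% ± 0.0370, 31.9% ± 0.822 and 1.58% ± 0.0660 of that sum (SD, n = 3).

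For each member, the gene with the most similar course was sought by the Pearson correlation of log2(TPM + 1) over the 9 libraries among 10455 genes that averaged at least 10 TPM in a group. The libraries fall into 3 groups, so r mainly reflects the group means. *Pkm*, a glycolytic enzyme, was closest to *Il2ra* (r = 0.9996), *Ctsz* to *Il2rb* (0.9978), *Cerk* to *Il2rg* (0.9983), *Ezh2* to *Il12rb1* (0.9993) and *Xpot* to *Il12rb2* (0.9997). *Gm30054* was closest to *Il18r1* (0.9988), *St6gal1* to *Il6ra* (0.9991) and *Coro1b* to *Il10ra* (0.9974). The courses of *Il4ra* and *Il21r* had few companions: 5 genes exceeded r = 0.98 with each of them, against 95 with *Il10ra*, 284 with *Il2rg*, 410 with *Il2rb* and 583 to 666 with the other 5 members. Their closest genes were *Lrrc32* (0.9914) and *Bend3* (0.9941). *Il12rb1* and *Il12rb2* correlated with each other at 0.998 and with *Il2ra* at 0.996 and 0.991.

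Among the other receptor chains, those called lower on stimulation outnumbered those called higher, and about as many were not called. Of 26 such chains, 25 were tested: 2 were called higher and 11 lower on stimulation, with a median log2 fold change of -0.77 beside -0.15 over all genes. With TRAIL against stimulation alone, 9 were higher and 2 lower (median 0.78 beside 0.01), and against medium 2 were higher and 1 lower (median -0.25 beside -0.18). Over all genes tested, 12.4%, 16.6% and 2.49% were called higher in these comparisons, and 19.5%, 14.3% and 2.13% lower. With a pseudocount of 5 TPM, 8 of the chains were called on stimulation (2 higher, 6 lower) and 7 with TRAIL against stimulation alone (6 higher, 1 lower). The B cell and myeloid markers moved the same way, as given above, and their part in the values of these chains was not tested. *Il7r*, the IL-7 receptor chain that also pairs with *Il2rg*, averaged 406 ± 16.9, 43.4 ± 6.85 and 283 ± 31.3 TPM in the medium, stimulated and TRAIL-treated groups, a TRAIL-treated against stimulated log2 fold change of 2.68 ± 0.13 (limma adjusted p = 4.45e-08). *Il9r*, another partner of *Il2rg*, was listed at 11.3 ± 2.00, 0.886 ± 0.439 and 7.02 ± 1.15 TPM (2.103 ± 0.19, limma adjusted p = 4.28e-06). *Il15ra*, the alpha chain for IL-15 and closest relative of *Il2ra*, ran with *Il2ra* at 9.33 ± 1.07, 67.2 ± 7.74 and 7.81 ± 0.965 TPM (-2.95 ± 0.13, limma adjusted p = 2.89e-08). The private chains named here thus did not move as a block. *Il7r*, *Il9r* and *Il15ra* were named for the size of their TRAIL-treated against stimulated change, so their direction there is a description.

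The kinases, STAT factors and feedback genes downstream of these receptors included 8 of 18 called higher and 1 lower on stimulation (median 0.98 beside -0.15). With TRAIL, 2 were higher and 9 lower than in stimulated cells (median -0.93 beside 0.01), and 2 were higher and 0 lower than in medium (median 0.04 beside -0.18). Of all genes tested, 12.4%, 16.6% and 2.49% were called higher in these comparisons, and 19.5%, 14.3% and 2.13% lower. *Cish* and *Socs1*, inhibitors that cytokine signals induce, averaged 10.3 ± 1.87, 207 ± 16.2 and 15.7 ± 1.17 TPM and 5.84 ± 0.930, 123 ± 21.7 and 12.2 ± 1.37 TPM in the medium, stimulated and TRAIL-treated groups. Their TRAIL-treated against stimulated log2 fold changes were -3.64 ± 0.13 (limma adjusted p = 7.33e-09) and -3.23 ± 0.15 (limma adjusted p = 4.09e-08). *Irs2*, an adaptor of the IL-4 and insulin receptors, was instead highest with TRAIL, at 13.7 ± 2.34, 9.10 ± 2.41 and 143 ± 9.62 TPM (3.86 ± 0.18, limma adjusted p = 4.02e-08). Named after their values were seen, *Jak3*, the kinase bound to *Il2rg*, averaged 82.0, 247 and 64.9 TPM, while *Jak1*, the kinase of the private chains, averaged 507, 216 and 519 TPM, and both were called in opposite directions in each of the first 2 comparisons. Of the factors that carry IL-2 signals, *Stat5a* averaged 52.2, 239 and 71.2 TPM, while *Stat5b* averaged 101, 108 and 112 TPM and was not called in any comparison. *Stat6*, which carries IL-4 signals, averaged 199, 166 and 156 TPM and was also not called. *Stat4*, which carries IL-12 signals, averaged 95.5, 53.7 and 89.0 TPM. Its log2 fold changes were -0.81 on stimulation and 0.72 with TRAIL against stimulation alone, both short of 2-fold and opposite to *Il12rb1* and *Il12rb2*.

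Of 16 ligands, 13 were tested, but 4 of them (*Il2*, *Il9*, *Il13* and *Il27*) passed the filter on low values only through the stimulated libraries, so their direction on stimulation was fixed by the filter and they are left out of the counts. Of the other 9, 6 were called higher and 2 lower on stimulation. With TRAIL, 1 was higher and 5 were lower than in stimulated cells, and 3 were higher and 0 lower than in medium. The medians of these 9 were 2.55, -2.37 and 0.24, beside -0.15, 0.01 and -0.18 over all genes. Of all genes tested, 12.4%, 16.6% and 2.49% were called higher in the same order, and 19.5%, 14.3% and 2.13% lower. *Il21*, the ligand of *Il21r*, stood at 1.53 ± 0.592, 346 ± 0.555 and 1.01 ± 0.193 TPM (-7.43 ± 0.16, limma adjusted p = 3.48e-10). *Il4* stood at 0.740 ± 0.928 TPM in medium, with 1 library listed at the floor of 0.0001 TPM, at 28.3 ± 5.62 TPM after stimulation and at 1.503 ± 0.286 TPM with TRAIL (-3.54 ± 0.32, limma adjusted p = 3.95e-06). *Il13*, which signals through *Il4ra* paired with *Il13ra1*, was listed at the floor in the 3 medium libraries and averaged 50.4 ± 3.88 and 0.366 ± 0.234 TPM in stimulated and TRAIL-treated cells. *Il13ra1*, named after its values were seen, averaged 7.30 ± 0.411, 2.72 ± 0.332 and 4.86 ± 0.138 TPM and was called lower on stimulation (-1.16), where *Il4ra* was called higher. The 3 ligands were named for the size of their TRAIL-treated against stimulated change, so their direction there is a description.

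**Figure D5:**
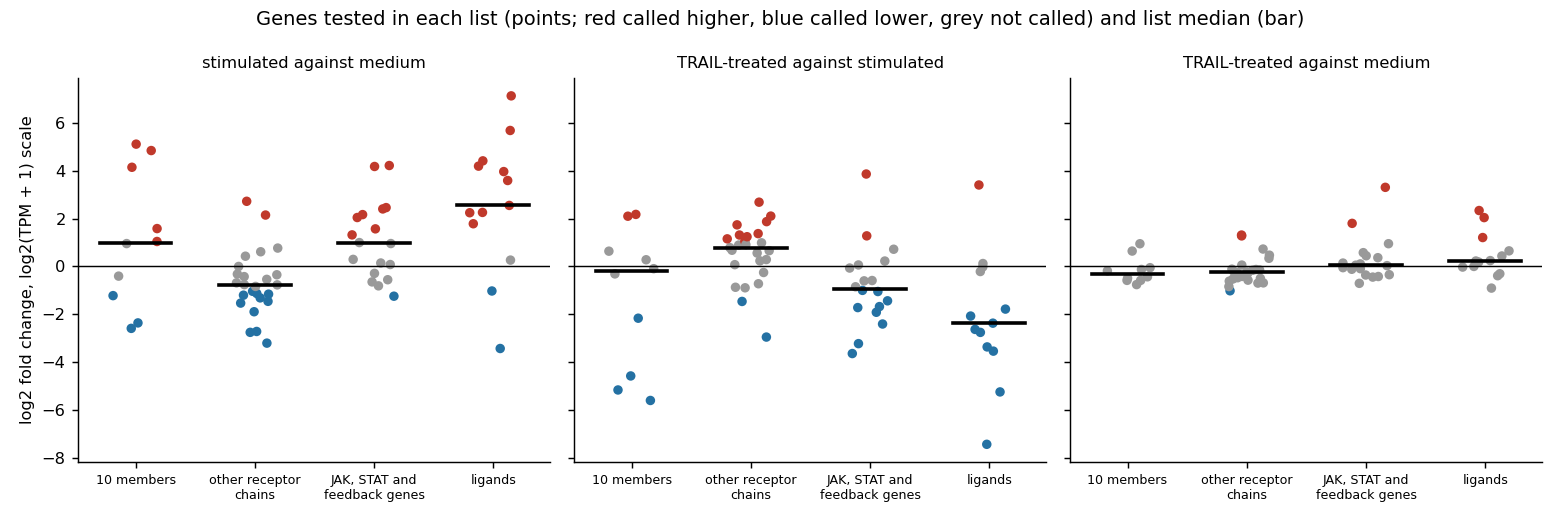
Log2 fold changes on the log2(TPM + 1) scale (vertical axis) of the 10 members and of the tested genes of the other receptor chains (25), JAK, STAT and feedback genes (18) and ligands (13, of which 4 passed the filter only through the stimulated libraries) in the 3 comparisons. Points are genes, coloured red where called higher, blue where called lower and grey where not called, and bars are list medians. The medians of the other receptor chains were -0.77, 0.78 and -0.25, and those of the JAK, STAT and feedback genes were 0.98, -0.93 and 0.04.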

How the data were processed

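Total RNA of cultured CD4+ T cells was sequenced in 9 libraries. The authors deposited 1 table of TPM values per gene, with the symbol and locus. Per the submitters' processing notes they used Trimmomatic 0.36, HISAT2 2.1.0, SAMtools 1.2, StringTie 2.1.2 and DESeq2. Those notes name the human build GRCh38. The methods of the study name GRCm38, and the loci of all 10 members are the same in GENCODE M21, an annotation of GRCm38. Values at 0.0001 TPM were taken as a floor. TPM keeps no depth, so no count test was run.

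The 15536 genes at 1 TPM or more in 3 or more libraries entered a limma 3.58.1 fit (R 4.3.3, eBayes with trend) on log2(TPM + 1) over the 3 groups. Fold changes on that scale understate those of low genes. Calls needed a Benjamini-Hochberg adjusted p below 0.05 over all genes and a change of 2-fold or more (1 on the log2 scale). The fit was tested on simulated data. Folds in the text are ratios of mean TPM. Chain ratios in the text are of TPM, and their tests used (TPM + 1) with exact permutation.

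The members and lists were chosen with earlier results of these data known. Named genes were the 10 members, from each list the 3 genes with the largest absolute TRAIL-treated against stimulated log2 fold change among called genes with a group mean of at least 10 TPM, and the most similar gene per member. Alternatives were other pseudocounts, filters, scalings, thresholds and fits, a replicate block, and omission of each library. Promoters came from RefSeq (7 members matched). Tables and figures used Python 3.11.15, pandas 2.3.3 and matplotlib 3.10.9. A gene of the erythroid marker list is not reported here.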

Additional observations from a re-analysis of the deposited data

How the results depend on the processing

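Of 570 member fold changes under alternative settings, 549 kept their direction and their side of the call rule, 8 turned, 9 were gained as calls and 4 were lost. Members called against medium in stimulated cells numbered 8, and 5 at a log2 threshold of 2, which 9.62% of all genes passed. In TRAIL-treated against medium cells, 0 members were called in the full set, 6 (2 higher, 4 lower) without a fold threshold, and 1 each with a pseudocount of 0.1 TPM (*Il12rb2*, -1.03), with median-of-ratios scaling (*Il4ra*, 1.14) and with scaling to T cell markers (*Il4ra*, 1.00), and the count ranged from 0 to 1 when single libraries were left out. Values that turned were all small: *Il4ra* in TRAIL-treated against stimulated cells (0.0018 with median-of-ratios scaling, 0.036 with quantile normalization), and in TRAIL-treated against medium cells *Il2ra* (0.13 with each), *Il2rg* (0.063 with median-of-ratios scaling) and *Il6ra* (0.0010 with the same). Leaving out single libraries, the *Il2ra* value ranged from -0.12 to 0.019. The *Il4ra* call on stimulation was lost with quantile normalization (0.91), and *Il21r* passed with median-of-ratios scaling (1.05) and T cell scaling (1.22). Of 126 counts of called genes among the other receptor chains and the JAK, STAT and feedback genes, 113 stayed within 1.5 times the reported count, and the 13 that moved further did so with other fold thresholds or pseudocounts. The cause of these shifts was not tested. Over 9 same-numbered pairs of libraries, deviations correlated at -0.306 to 0.295, with 3 over 0.1. Pairs with different numbers ranged from -0.379 to 0.289, so the numbers showed no clear pairing. With 3 libraries per group, these values cannot exclude it. With the replicate block, 8, 6 and 0 members were called, as without it. TPM values carry no depth, so low levels such as those of *Il12rb2* outside stimulated cells have no counting error attached.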
